A study of Homo sapiens with 4 samples.

Results

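Transcripts of 10 cell cycle genes were followed in RNA precipitated with the kinesin heavy chain KIF5A. The set held the D-type cyclins CCND1, CCND2 and CCND3, the E-type cyclins CCNE1 and CCNE2, the mitotic cyclins CCNA2, CCNB1 and CCNB2, the kinase CDK1 and the survivin gene BIRC5. These genes were proposed with earlier results of these libraries known, and were matched by symbol to the Ensembl identifiers of the count tables. All 10 were found among the 60719 genes listed. Of these, 9 had at least 1 count in each library and passed the filter on low counts, and CCND2 did not.

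The libraries came from SK-N-AS (SKNAS in the labels), an established human neuroblastoma line, harvested 24 hours after lipid transfection with a V5-tagged KIF5A construct. The d27 group carried the V5-d27 mutant construct (n = 2, replicates 1 and 2), and the WT group carried V5-WT KIF5A (n = 2, replicates 1 and 2). The series groups its mutants with amyotrophic lateral sclerosis and asks how the RNAs bound by the mutant protein differ from those bound by the normal one. RNA was eluted from anti-V5 magnetic beads in both groups, and whether replicates were separate cultures is not stated in the labels. The p-values therefore cover the differences between these 4 libraries, and these may be technical. No library of input or mock-precipitated RNA was analysed here, so a transcript's abundance in the cells and its recovery with the beads cannot be told apart.

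Cyclins are the regulatory subunits of cyclin-dependent kinases (CDKs). D-type cyclins with CDK4 or CDK6 and then E-type cyclins with CDK2 drive cells out of G1 by inactivating the retinoblastoma protein, cyclin A acts through S phase and G2, and B-type cyclins with CDK1 bring cells into mitosis. Survivin is a small inhibitor of apoptosis protein that also serves, with INCENP, borealin and the kinase Aurora B, in the chromosomal passenger complex of dividing cells. The transcripts of the mitotic members are known to peak in G2 and mitosis, whereas those of the E-type cyclins peak at the G1 to S transition.

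Gene counts totalled 18335151 and 10483082 in d27 replicates 1 and 2, against 8142869 and 10811134 in WT replicates 1 and 2. HTSeq entries assigned to no single gene made up 25.9% and 36.8% of all entries in d27 and 47.6% and 47.3% in WT, and their part in the results below was not tested. Libraries correlated between 0.866 and 0.963 across genes on the log2 scale, and the correlation of WT replicate 1 with d27 replicate 2 (Pearson r = 0.93) was level with that between the WT replicates (r = 0.928). All 6 mesenchymal neuroblastoma markers had counts in every library, with summed levels of 2630 to 2810 CPM (read counts relative to a library size scaled by TMM) in d27 and 3130 to 3430 CPM in WT. Of 7 adrenergic markers, 6 had counts in every library, with sums of 583 to 732 CPM in d27 and 815 to 833 CPM in WT, and TH was at 0 in d27 replicate 1 and WT replicate 2. MYCN stayed at or below 0.683 CPM, in a line known to lack its amplification. The blood markers CD3E and HBB and the epithelial markers EPCAM and KRT5 were at 0 in every library, while PTPRC had 100.8 and 79.8 CPM in d27, against 190.0 and 162.2 CPM in WT, and KRT18 had 74.2 and 70.7 CPM in d27, against 212.5 and 158.6 CPM in WT. The part of these transcripts in the results was not tested. KIF5A took 108200 and 109300 CPM in d27 and 83660 and 166100 CPM in WT, a count in which reads of the transfected construct and of the cells' own gene are pooled, so that it checks no label (log2 fold change -0.20 ± 0.49 SE, d27 over WT, edgeR adjusted p = 0.821; the log2 fold change was 0.40 without WT replicate 2).

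The members did not move as a block between d27 and WT precipitates. CCND3, CCNE1 and BIRC5 were higher with d27 and CCNB1 was lower, by edgeR's quasi-likelihood test with Benjamini-Hochberg adjustment over 14909 genes at 0.05, and CCND1, CCNE2, CCNA2, CCNB2 and CDK1 did not pass. Across all genes tested, 11.7% were called, 8.0% higher and 3.7% lower (1192 and 551 genes). With an offset for GC content and exon length, that split was 1286 higher and 1059 lower. The members were proposed with earlier results of these libraries known, so the count of 4 calls among 9 is not read against that share. Both d27 libraries lay above both WT libraries for 5 members and below them for 2, and overlapped them for 2. Of all genes tested, 61.2% had groups that did not overlap, and the members are not read against that share either. With a library left out, 1 group holds a single library, which the fit takes to vary like the other group's pair, so a lost call there does not show a smaller difference. Without d27 replicate 1, the most deeply sequenced library, CCND3 alone was called, and without WT replicate 2, the library that correlated least with d27, CCND3 and CCNB1 were called. Without d27 replicate 1 the log2 fold changes were 1.39 for CCNE1, -0.996 for CCNB1 and 0.89 for BIRC5.

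**Figure D1:**
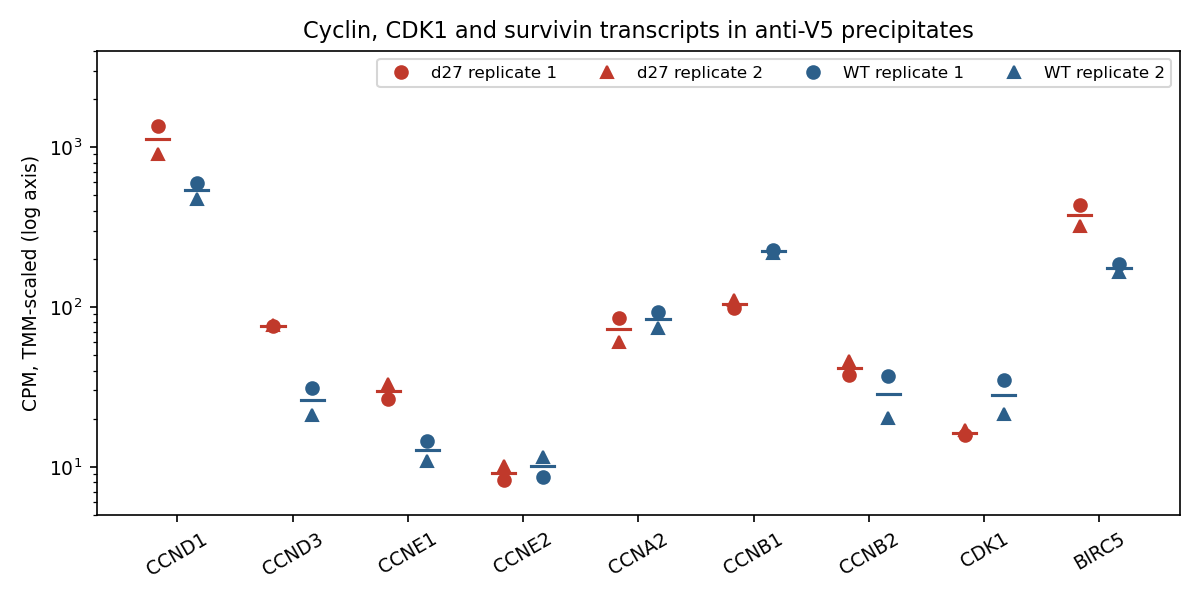
TMM-scaled CPM of 9 members in each library on a log axis, d27 in red and WT in blue, circles for replicate 1, triangles for replicate 2 and a line at each group's mean (n = 2). The groups are apart for CCND1, CCND3, CCNE1, CCNB1, CCNB2, CDK1 and BIRC5, with CCNB1 and CDK1 lower in d27, and overlap for CCNE2 and CCNA2. CCND2 is not drawn because 3 of its 4 values are 0.

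**Figure D2:**
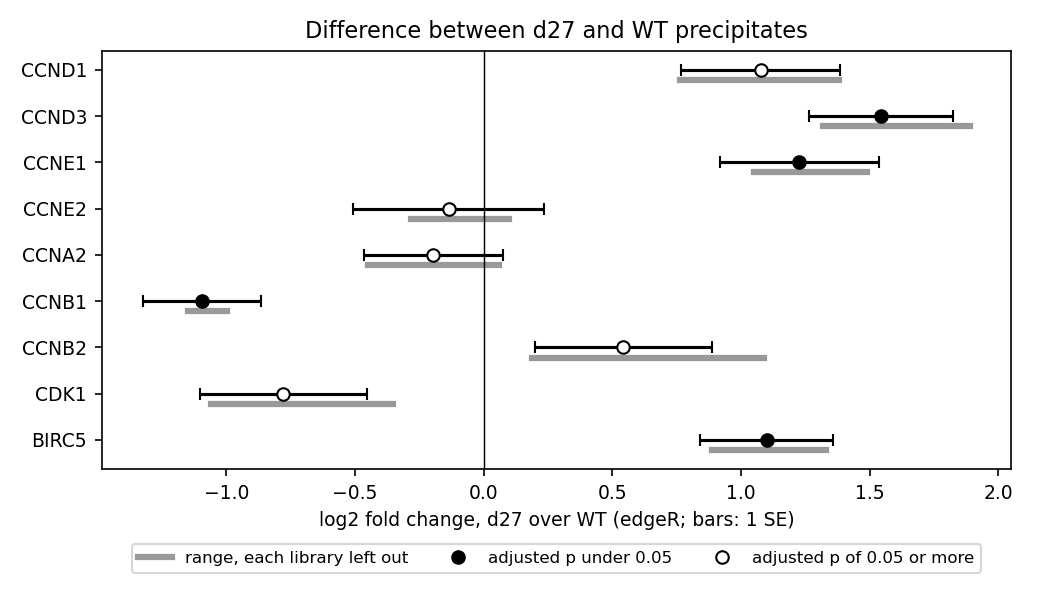
edgeR log2 fold change, d27 over WT, with its standard error for 9 members, and in grey the range when each library is left out in turn. Filled points passed at an adjusted p of 0.05. CCND3 lies highest at 1.54 and CCNB1 lowest at -1.09, and the grey ranges of CCNE2 and CCNA2 cross 0.

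Of the D-type cyclins, CCND3 rose in d27. CCND3 (ENSG00000112576.13; GRCh38 chromosome 6, 41934933 to 42050357, minus strand) had 75.4 and 77.0 CPM in d27, against 31.1 and 21.2 CPM in WT. Each d27 library was above both WT libraries, and the d27 values lay closer together than the WT values. On the log2 scale it rose by 1.54 ± 0.28 (SE, d27 over WT, n = 2 in each group; adjusted p = 0.0185, edgeR), a 2.92-fold difference seen in 2 of 2 d27 libraries, and CCND3 was called under all 12 alternatives, with adjusted p between 2.17e-05 and 0.0337.

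CCND1, the most abundant member and the cyclin most directly induced by growth factor signalling, had 1360.0 and 898.0 CPM in d27, against 593.9 and 476.3 CPM in WT. The d27 libraries were both higher, but they differed from each other by more than did the WT libraries. CCND1 (ENSG00000110092.4; chromosome 11, 69641087 to 69654474, plus strand) had a log2 fold change of 1.08 ± 0.31 and did not pass (edgeR adjusted p = 0.0609). DESeq2 called it (log2 1.06, adjusted p = 0.00272), as did 7 of the 12 alternatives in all, with a range of 0.00272 to 0.388. Its exons share 497 bases with LTO1 on the opposite strand, which had 1236 and 795 counts in d27 and 144 and 136 in WT. The strand setting of the counting is not given in the sources used here.

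CCND2, the third D-type cyclin, was at the floor of detection. It had 0 counts in d27 replicate 1, 1 count in d27 replicate 2 and 0 counts in both WT libraries. Its exons share 989 bases with AC008012.1 on the same strand, where reads can be lost as ambiguous. AC008012.1 itself had 0 counts in every library. The limit set by a count of 0, taken as 3 counts, is 0.163 CPM in d27 replicate 1, 0.341 CPM in WT replicate 1 and 0.312 CPM in WT replicate 2, so no direction can be given at this depth. Among D-type counts scaled by exon length, CCND1 held 95.6% and 93.3% in d27 and 95.8% and 96.4% in WT, and CCND3 held 4.41% and 6.66% in d27 and 4.17% and 3.57% in WT. CCND3's share was higher in both d27 libraries, by 1.66 percentage points on average, which became 0.54 without d27 replicate 2 and 2.79 without d27 replicate 1.

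Of the E-type cyclins, CCNE1 rose and CCNE2 did not pass. CCNE1 (ENSG00000105173.14; chromosome 19, 29811898 to 29824308, plus strand) had 26.7 and 33.0 CPM in d27, against 14.6 and 10.9 CPM in WT. The groups did not overlap. Its log2 fold change was 1.23 with a standard error of 0.31 (n = 2 in each group; edgeR adjusted p = 0.0421), a 2.34-fold difference in the same direction in 2 of 2 d27 libraries. The call was lost without d27 replicate 1 (log2 1.39, adjusted p = 0.0901), d27 replicate 2 (log2 1.10, 0.154) or WT replicate 2 (log2 1.05, 0.0817) and with library totals in place of TMM (0.0685), within a range of 0.00317 to 0.154.

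CCNE2, the paralogue of CCNE1 with the same kinase partner, had 8.27 and 10.0 CPM in d27, against 8.65 and 11.4 CPM in WT. The groups overlapped. Its log2 fold change of -0.14 ± 0.37 (edgeR adjusted p = 0.837) changed sign to 0.10 without WT replicate 2 and 0.02 without d27 replicate 1. CCNE2 (ENSG00000175305.17; chromosome 8, 94879770 to 94896678, minus strand) shares 1629 exon bases with INTS8 on the opposite strand. Scaled by exon length, CCNE1 held 84.8% and 85.0% of E-type counts in d27, against 74.4% and 62.2% in WT. That share needs no scaling between libraries, and both d27 values exceeded both WT values, by 16.6 percentage points on average.

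Of the mitotic cyclins, CCNB1 fell in d27, and CCNA2 and CCNB2 did not pass. CCNB1 (ENSG00000134057.15; chromosome 5, 69167010 to 69178245, plus strand) had 98.4 and 110.7 CPM in d27, against 228.3 and 218.4 CPM in WT. Replicates lay close together in both groups, and the groups were well apart. With an adjusted p of 0.0269 (edgeR, n = 2 in each group), the log2 fold change was -1.09 ± 0.23 SE, lower in 2 of 2 d27 libraries, so that WT was 2.14-fold above d27. The call was lost without d27 replicate 1 (adjusted p = 0.142) and held under the other 11 alternatives, the lowest adjusted p being 0.000511.

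CCNB2, the second B-type cyclin, which associates with the Golgi apparatus, had 37.4 and 46.1 CPM in d27, against 37.2 and 20.2 CPM in WT. The d27 values were above the WT values, with d27 replicate 1 and WT replicate 1 nearly level. CCNB2 (ENSG00000157456.8; chromosome 15, 59105078 to 59125045, plus strand) had a log2 fold change of 0.54 ± 0.34 (edgeR adjusted p = 0.323). That fold change was 1.09 without WT replicate 1 but 0.19 without WT replicate 2. With the offset for GC content and exon length it was 0.27.

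CCNB1 made up less of the B-type cyclin counts in both d27 libraries. The count ratio of CCNB1 to CCNB2 was 2.63 and 2.40 in d27, against 6.13 and 10.8 in WT. Scaled by exon length, CCNB1 held 74.2% and 72.4% of B-type counts in d27 and 87.0% and 92.2% in WT, with a mean difference of -16.3 percentage points, d27 minus WT. No overlap was seen between groups for either the B-type or the E-type share. With 2 libraries against 2, an exact permutation test of such a share cannot reach 0.05, so these shares are given as values.

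**Figure D3:**
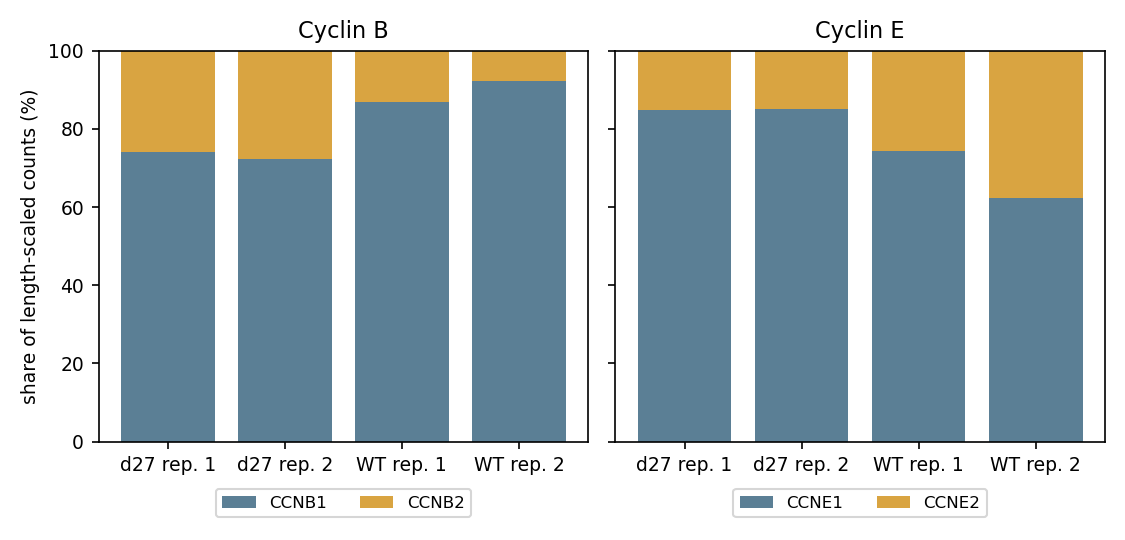
Share of length-scaled counts held by each gene of the cyclin B pair (left) and the cyclin E pair (right) in each library, d27 libraries left of WT libraries. CCNB1 holds 72.4% to 74.2% in d27 and 87.0% to 92.2% in WT, and CCNE1 holds 84.8% to 85.0% in d27 and 62.2% to 74.4% in WT.

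CCNA2 (ENSG00000145386.11; chromosome 4, 121816444 to 121823933, minus strand) had 85.3 and 60.4 CPM in d27, against 93.0 and 74.1 CPM in WT. The groups overlapped. Its log2 fold change of -0.20 ± 0.27 (edgeR adjusted p = 0.665) became 0.02 without WT replicate 1 and 0.06 without d27 replicate 2. It shares 254 exon bases with EXOSC9 on the opposite strand.

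The promoters of the mitotic members are shown because the mitotic cyclins and CDK1, of which CCNB1 was called here, are known to be switched on together in G2 through CCAAT boxes, bound by the factor NF-Y, and a cell cycle gene homology region (CHR). RefSeq promoters (GRCh38.p14) were matched for 6 members, CCNA2, CCNB1, CCNB2, CCND3, CCNE1 and CDK1. They were not matched for CCND1, CCND2, CCNE2 and BIRC5. Each sequence below is the 170 bases before the annotated start, read 5′ to 3′ on the gene's strand. Capitals mark CCAAT on either strand (ATTGG where it is on the opposite strand) and the CHR letters TTTGAA. The windows are chr4:121823884-121824053 (minus strand) for CCNA2, chr5:69166980-69167149 (plus) for CCNB1, chr15:59104976-59105145 (plus) for CCNB2 and chr10:60778161-60778330 (plus) for CDK1.
CCNA2: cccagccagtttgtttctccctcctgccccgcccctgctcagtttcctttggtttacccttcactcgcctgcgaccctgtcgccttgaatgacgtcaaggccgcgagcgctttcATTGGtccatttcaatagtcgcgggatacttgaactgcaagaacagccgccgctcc
CCNB1: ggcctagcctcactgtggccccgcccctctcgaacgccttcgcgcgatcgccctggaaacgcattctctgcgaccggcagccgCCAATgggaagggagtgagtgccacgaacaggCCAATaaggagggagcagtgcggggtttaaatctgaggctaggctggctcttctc
CCNB2: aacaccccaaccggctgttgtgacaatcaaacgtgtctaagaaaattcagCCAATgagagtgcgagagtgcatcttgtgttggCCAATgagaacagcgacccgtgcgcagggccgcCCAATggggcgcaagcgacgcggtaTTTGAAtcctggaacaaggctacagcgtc
CDK1: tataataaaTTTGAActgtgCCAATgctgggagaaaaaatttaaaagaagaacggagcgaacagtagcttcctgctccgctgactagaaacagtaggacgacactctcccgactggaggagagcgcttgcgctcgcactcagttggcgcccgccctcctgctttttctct

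CCAAT lies 87 and 55 bases before the start in CCNB1, and 120, 87 and 54 bases before it in CCNB2, with another CCNB2 match 244 bases before the start. CCNA2 has a match 56 bases before the start on the opposite strand and CDK1 has 1 at 150 bases. In all, 4 of the 6 matched members held CCAAT in the 300-base window (250 bases before and 50 from the start), against 35.7% of 27305 promoters. The CHR letters TTTGAA or TTCGAA, searched on both strands, were in CCNB2 and CDK1, and in 16.6% of all promoters. No other spelling was searched, so CCNA2 and CCNB1 are not shown to lack a CHR. The CCND3 and CCNE1 windows held neither CCAAT nor the CHR letters. These are letter matches in DNA, while the data are precipitated RNA, and no relation between them was tested.

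CDK1, the kinase that B-type cyclins activate, had 15.8 and 16.9 CPM in d27, against 34.7 and 21.5 CPM in WT. Both d27 values were below both WT values, and the WT libraries differed from each other by more than d27 replicate 2 did from WT replicate 2. CDK1 (ENSG00000170312.16; chromosome 10, 60778331 to 60794852, plus strand) had a log2 fold change of -0.78 ± 0.32 and did not pass (edgeR adjusted p = 0.150). With an offset for GC content and exon length it passed (log2 -1.27, adjusted p = 0.0190), and without WT replicate 1 its log2 fold change was -0.35. The count ratio of CCNB1 to CDK1 was 6.22 and 6.54 in d27 and 6.58 and 10.1 in WT.

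BIRC5, which encodes survivin, rose in d27. BIRC5 (ENSG00000089685.15; chromosome 17, 78214186 to 78225636, plus strand) had 431.4 and 321.1 CPM in d27, against 186.5 and 164.6 CPM in WT. Each d27 library exceeded each WT library. The rise was 2.14-fold, or 1.10 ± 0.26 SE on the log2 scale (n = 2 in each group; adjusted p = 0.0357, edgeR), and was seen in 2 of 2 d27 libraries. The call was lost without d27 replicate 1 (adjusted p = 0.177), without WT replicate 2 (0.0813) and with the offset for GC content and exon length (0.0625), within a range of 0.00122 to 0.177. Within each library, which needs no scaling between libraries, the count ratio of BIRC5 to CCNB1 was 4.38 and 2.90 in d27, against 0.817 and 0.754 in WT. That ratio sets a member called higher over the member called lower, so its difference between groups follows from those calls.

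Levels of different genes were compared per kilobase of exon. In d27, CCND1 stood highest with 233.8 ± 67.7 CPM per kilobase (SD, n = 2), followed by BIRC5 (98.6 ± 20.5), CCNB1 (40.9 ± 3.39), CCNA2 (26.1 ± 6.29), CCNB2 (14.9 ± 2.18), CCND3 (13.1 ± 0.191), CCNE1 (11.7 ± 1.75), CDK1 (4.17 ± 0.195) and CCNE2 (2.08 ± 0.284). No neighbours in that order had overlapping values, with 2 libraries each. In WT, CCND1 again stood highest (110.8 ± 17.2), but CCNB1 (87.3 ± 2.74) came before BIRC5 (46.0 ± 4.06). CCNA2 (29.9 ± 4.77) and CCNB2 (10.2 ± 4.30) followed, and CCNB2, CDK1 (7.15 ± 2.37), CCNE1 (5.00 ± 1.01) and CCND3 (4.50 ± 1.20) overlapped from each neighbour to the next. CCNE2 (2.28 ± 0.448) lay below them, and CCND2 came last in both groups. BIRC5 and CCNB1 thus changed places between the groups. With the longest coding transcript as the length in place of all exons, the mean over the 4 libraries was 24.5 in place of 8.82 for CCND3, 22.6 in place of 12.6 for CCNB2 and 11.4 in place of 5.66 for CDK1, so the lower part of the order depends on which isoforms are present.

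Around the members, 9 lists of 132 cell cycle genes gave 128 genes tested, of which 9 rose, 6 fell and 113 did not pass. That is 11.7% called, level with the 11.7% of all genes, and the median log2 fold change was -0.14, against -0.00043 over all genes tested. By list, the share called ran from 0.0% of the other CDKs to 30.8% of the genes acting on CDK1. The other cyclins, CDK inhibitors and mitotic kinases also lay above 11.7%. Cyclin degradation, the retinoblastoma group and the other inhibitor of apoptosis genes lay below it. The lists were short and chosen with earlier results known, so these shares are given as values.

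Of 14 other cyclins tested, 3 rose and 11 did not pass, with a median log2 fold change of 0.56. CCNK, the partner of the transcriptional kinases CDK12 and CDK13, had 349.0 and 324.3 CPM in d27, against 59.6 and 38.8 CPM in WT (log2 2.77 ± 0.29 SE, edgeR adjusted p = 0.00673), the largest fold change among the called genes of these lists. It overlaps CCDC85C on the opposite strand over 4893 exon bases, and CCDC85C had 1737 and 830 counts in d27 and 475 and 458 in WT. CCNC, the Mediator cyclin that binds CDK8, rose with a log2 fold change of 1.63 ± 0.37, and CCNJ rose with 1.26 ± 0.30. The CCNJ call was lost without d27 replicate 1 or WT replicate 2, with library totals and with the GC and length offset, and the CCNC call with library totals (adjusted p = 0.0557). None of the 18 other CDKs passed edgeR, although 6 had an unadjusted p under 0.05 and DESeq2 called 3. The lowest p was that of CDK18 (log2 0.98 ± 0.31, edgeR adjusted p = 0.0770).

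Of 7 tested CDK inhibitors, 2 rose and 5 did not pass (median log2 fold change -0.02). CDKN1A, the p53-induced inhibitor p21 that acts on CDK2 with cyclin E or A, had 54.5 and 55.7 CPM in d27, against 14.1 and 7.90 CPM in WT (log2 2.33 ± 0.34 SE, edgeR adjusted p = 0.0109). CDKN2D, an inhibitor of CDK4 and CDK6, had 8.92 and 13.9 CPM in d27, against 3.19 and 1.77 CPM in WT (log2 2.20 ± 0.50, edgeR adjusted p = 0.0334), and lost its call without d27 replicate 2. CDKN1A rose in the same precipitates as CCNE1 and CCND3, transcripts of cyclins whose kinases it and CDKN2D restrain. No relation between these transcripts was tested, and the other 5 tested inhibitors did not pass.

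Of 13 listed genes that act on CDK1 or on the phosphatase opposing it, with the replication licensing inhibitor geminin among them, 3 rose, 1 fell and 9 did not pass (median -0.32). ENSA and ARPP19, small inhibitors of the phosphatase PP2A-B55 that opposes CDK1, had log2 fold changes of 1.64 ± 0.23 (edgeR adjusted p = 0.0103) and 1.30 ± 0.27 (adjusted p = 0.0253). CKS2, a small CDK-binding subunit, had 13.3 and 19.8 CPM in d27, against 39.2 and 39.0 CPM in WT (log2 -1.24 ± 0.30, edgeR adjusted p = 0.0386). The third that rose, chosen after its value was seen, was the CDK1-activating phosphatase CDC25B (log2 0.99 ± 0.25, edgeR adjusted p = 0.0417). WEE1, the kinase that inhibits CDK1, was likewise chosen after its value was seen and did not pass (-0.74 ± 0.32, edgeR adjusted p = 0.165). In the same list, CDC25A (log2 -0.39), CDC25C (-0.51) and PKMYT1 (-0.08) did not pass. They too were chosen after their values were seen, and CDC25A and CDC25C were lower in both d27 libraries, unlike CDC25B. The ARPP19 and CKS2 calls were lost without d27 replicate 1, and CDC25B lost its call without d27 replicate 1, d27 replicate 2 or WT replicate 2, with library totals and with the offset. CKS2 also lost its call with library totals (adjusted p = 0.0656).

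Of 28 genes for cyclin degradation, 1 fell and 27 did not pass (median -0.32). ANAPC2, the cullin subunit of the anaphase-promoting complex that marks cyclin B for destruction, had 16.1 and 20.9 CPM in d27, against 37.8 and 59.0 CPM in WT (log2 -1.39 ± 0.32 SE, edgeR adjusted p = 0.0344). It lost its call without d27 replicate 1 or WT replicate 2. Of 20 genes of the retinoblastoma, E2F, DREAM and FOXM1 group, which control transcription of the members, 1 rose and 19 did not pass (median 0.25). FOXM1, an activator of mitotic genes such as CCNB1, had 639.0 and 478.1 CPM in d27, against 239.2 and 269.2 CPM in WT (log2 1.14 ± 0.27, edgeR adjusted p = 0.0353, and 0.174 without d27 replicate 1). FOXM1 shares 781 exon bases with ITFG2 on the opposite strand.

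Of 8 genes of the chromosomal passenger complex and its recruitment, in which survivin acts, 1 fell and 7 did not pass (median -0.64). That is 12.5% called, near the 11.7% of all genes. INCENP, the scaffold that survivin binds, had 118.9 and 123.8 CPM in d27, against 293.5 and 426.3 CPM in WT (log2 -1.57 ± 0.27 SE, edgeR adjusted p = 0.0161), and its groups were far apart. It was called under all alternatives tried. Borealin (CDCA8) had 80.6 and 65.2 CPM in d27 and 72.4 and 61.1 CPM in WT, and Aurora B (AURKB) had 15.02 and 14.97 CPM in d27 and 28.8 and 19.1 CPM in WT. Neither passed, with edgeR adjusted p-values of 0.766 and 0.193, and both were chosen after their values were seen. Of 12 other inhibitor of apoptosis genes and partners, 1 fell and 11 did not pass (median 0.18). BIRC6, a giant ubiquitin ligase with the same BIR domain as survivin, had 182.6 and 251.8 CPM in d27, against 462.2 and 599.4 CPM in WT (log2 -1.29 ± 0.28, edgeR adjusted p = 0.0301). The BIRC6 call was lost without d27 replicate 1 or WT replicate 2 and with the GC and length offset.

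Of 8 mitotic kinases and activators beside CDK1, 2 fell and 6 did not pass (median -0.67). TPX2, the spindle protein that activates Aurora A, had 123.2 and 124.9 CPM in d27, against 242.2 and 283.0 CPM in WT (log2 -1.08 ± 0.23 SE, edgeR adjusted p = 0.0292). PLK4, the kinase that starts centriole duplication, had a log2 fold change of -1.20 ± 0.27 (edgeR adjusted p = 0.0321). TPX2 lost its call without d27 replicate 1, d27 replicate 2 or WT replicate 2, and PLK4 without d27 replicate 2.

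**Figure D4:**
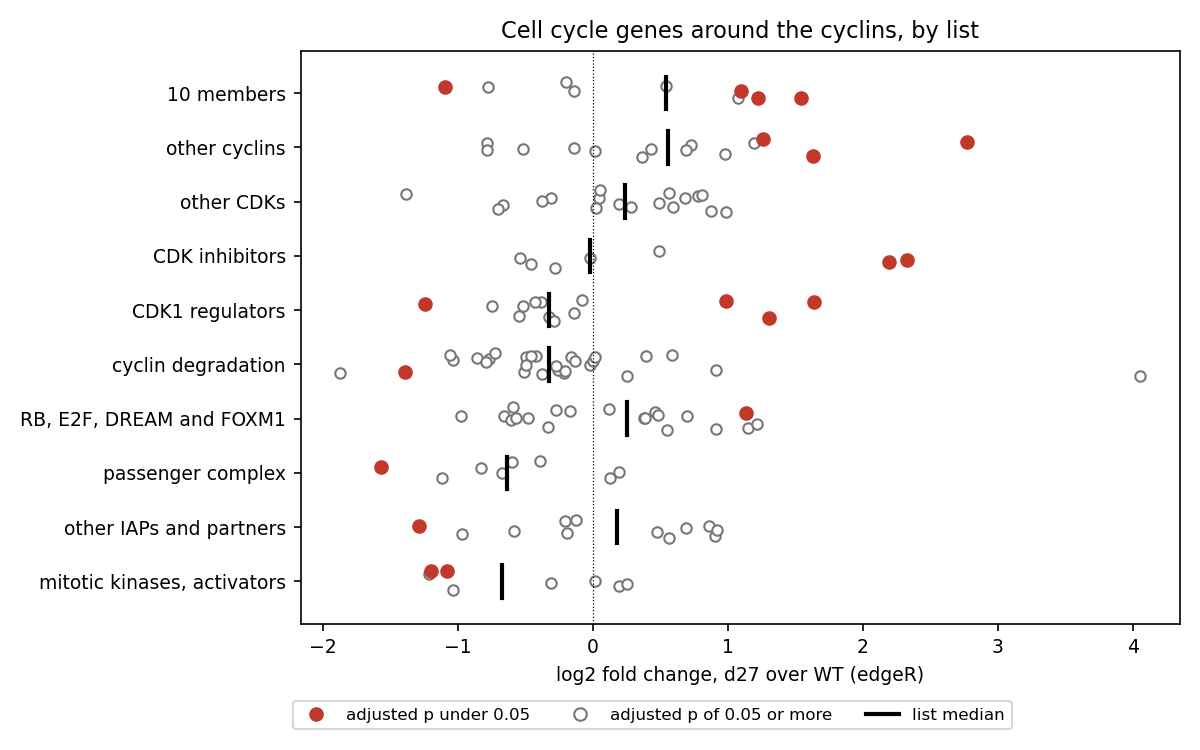
edgeR log2 fold change, d27 over WT, of each tested gene in the 9 lists and among the members, with the list median as a black bar and called genes in red. Medians run from -0.67 for the mitotic kinases and activators to 0.56 for the other cyclins, and each list with called genes also holds genes that did not pass.

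Nearest genes were sought among the 137 tested members and listed genes, by Euclidean distance of centred log2 CPM over the 4 libraries. The called members had different nearest genes, except that CCND3 and CCNE1 shared LIN52. The genes nearest to CCNB1 included TPX2 (distance 0.23) and AURKA, the Aurora A kinase (0.24), which were both lower in both d27 libraries. BIRC5 lay nearest to CCND1 (0.16), CCNJ (0.19) and ARPP19 (0.21), and in these 4 genes d27 replicate 1 was the highest library and WT replicate 2 the lowest. CCND3 lay nearest to ENSA (0.30), CCNC (0.37) and the DREAM subunit LIN52 (0.39). CCNE1 lay nearest to ANAPC16 (0.32), CDC25B (0.34) and LIN52 (0.39). Of the neighbours named, AURKA (edgeR adjusted p = 0.0514), LIN52 (0.0530), CCND1 (0.0609) and ANAPC16 (0.0982) did not pass. Distances over 4 libraries that differ by group mostly reflect the group difference.

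A feature that was not used to choose the members ran along with their fold changes, and it was looked at after the values were known. The 4 members whose longest transcript has over 50% GC, namely CCND1 (50.3%), BIRC5 (52.2%), CCNE1 (52.9%) and CCND3 (56.2%), had log2 fold changes between 1.08 and 1.54. The 5 other tested members, CCNE2 (36.9%), CDK1 (37.0%), CCNA2 (42.1%), CCNB1 (43.2%) and CCNB2 (44.3%), lay between -1.09 and 0.54. Over all genes tested, the median log2 fold change was 0.17 under 40% GC (2342 genes), 0.04 from 40% to 45% (3211 genes) and -0.05 from 45% to 50% (2711 genes). It was -0.08 from 50% to 55% (2397 genes), -0.03 from 55% to 60% (2173 genes) and -0.10 from 60% up (1981 genes). With the offset for GC content and exon length, the 4 members over 50% GC lay between 0.83 and 1.42. The 5 others then lay between -1.42 and 0.27, and the median over all genes tested was -0.10. The part of GC content in the members' differences was not tested.

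**Figure D5:**
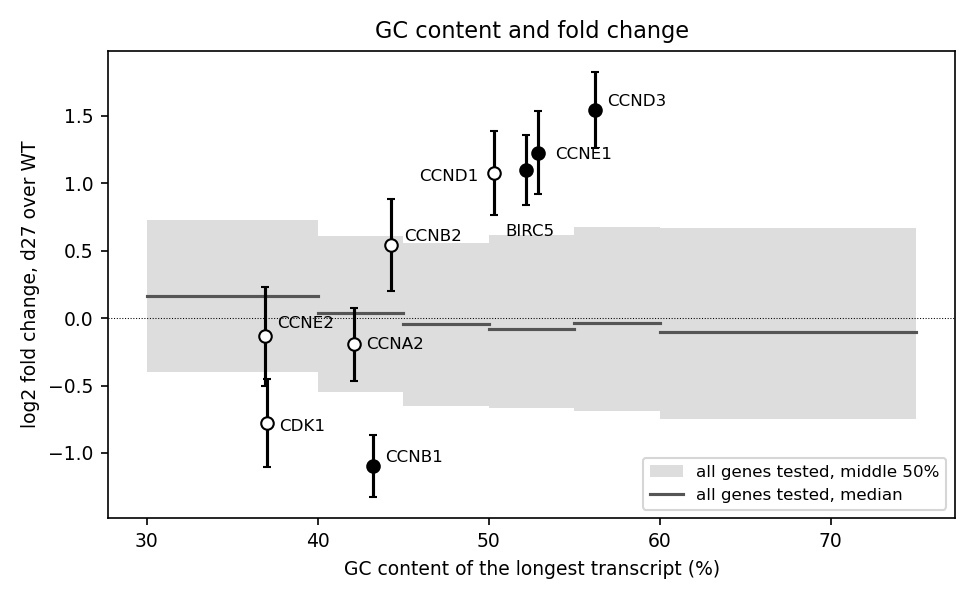
GC content of the longest annotated transcript against the edgeR log2 fold change, d27 over WT, with its standard error for 9 members (filled where called). Grey blocks give the middle 50% of all genes tested in each GC range and dark lines their medians, which stay between -0.10 and 0.17, and the lowest and highest ranges are open-ended. The 4 members above 50% GC all lie above the grey blocks.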

How the data were processed

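HTSeq, DESeq2 and the build GRCh38 are named in the submitters' processing notes. No source used here gives the aligner, annotation release, strand setting or versions. Each library has 1 deposited table of HTSeq counts, whole numbers of reads for each gene with no normalization. HTSeq's summary entries entered neither the library sizes nor the tests. In its default mode HTSeq drops ambiguous and multiply aligned reads, and whether that mode was used is not stated, so members that overlap other genes can be undercounted. Of 60719 identifiers, 58488 had an entry in GENCODE release 29, which gave positions, exon lengths and GC content, and 60463 had a symbol.

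The test was edgeR 4.0.16 (R 4.3.3) with TMM, filterByExpr by group (minimum count 10, minimum total 15; 14909 genes left), robust glmQLFit and glmQLFTest on group, adjusted by Benjamini-Hochberg over all genes tested, and it was tested on simulated data. Standard errors are the absolute log2 fold change over the root of F. The floor of 3 counts reflects counting error alone, as no molecular identifiers are described. Alternatives were DESeq2 1.42.0, its size factors, library totals, no filter, at least 50 counts in 2 libraries, each library left out, a replicate block, and a spline offset (5 degrees of freedom) for GC content and exon length.

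The members and lists were chosen with earlier results of these data known. Text names the 10 members, KIF5A, up to 3 called genes per list by lowest p (or the lowest p where none was called), and for each called member its 3 nearest genes by pattern; exceptions are marked. A neighbour of CCNB1 and a blood marker are not reported here.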

Additional observations from a re-analysis of the deposited data

How the results depend on the processing

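The 4 calls among the members were 3 to 6 under the alternatives that keep all libraries, and 1 to 6 with each library left out. Calls over all genes (1743) were 2909 with DESeq2, 2862 without the filter, 3575 with the replicate block and 3465 with the block and the GC and length offset, and 768 to 4851 with each library left out. Calls among the 128 pathway genes (15) became 34 with DESeq2, 29 without the filter, 27 with at least 50 counts in 2 libraries, 41 with the replicate block, 27 with the offset, 38 with block and offset, and 8 to 41 with each library left out. With library totals, calls fell to 1174 over all genes and to 11 among the pathway genes. The cause of these shifts was not tested. Deviations from the group mean correlated at 0.0962 between d27 replicate 1 and WT replicate 1. With 2 libraries in each group, the opposite pairing must give the same value with its sign turned (-0.0962). Whether replicate numbers pair the libraries therefore cannot be settled from it. With the replicate block 5 members were called, CCND1 (edgeR adjusted p = 0.0149) being added. Without a filter the median log2 fold change of all genes was 0.31, with 31016 genes tested. CCNB1's share of cyclin B differed by -20.7 percentage points with the longest coding transcript as length (main value -16.3; -18.9 to -13.7 with each library left out). CCND3's share of cyclin D differed by 3.57 points with that length (main value 1.66; 0.54 to 2.79), and CCNE1's share of cyclin E by 10.5 to 22.7 with each library left out (16.6). With each library left out, signs changed for CCNA2 (-0.451 to 0.0613, with 0.0233 without WT replicate 1), CCNE2 (-0.281 to 0.100, with 0.0162 without d27 replicate 1) and KIF5A (-0.568 to 0.401). Of the other values for single genes, 288 kept their side of the threshold, 35 newly passed and 32 no longer passed. CCND2, with 1 count in 1 library and 0 in the other 3, was too low for a direction at this depth.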
